A study of Homo sapiens with 17 samples.

Results

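The genes described here are 45 members of the DNA replication machinery and of the E2F target programme, listed by name and found among the 58278 gene identifiers counted in every library. They were divided by role into 8 classes: origin licensing (11 genes), helicase activation (6), polymerases and primase (6), the sliding clamp and its loader (5), single-strand DNA binding and Okazaki fragment maturation (4), nucleotide supply (5), cyclin E and E2F factors (5) and replication-coupled chromatin assembly (3). Each symbol matched 1 identifier, and all 45 were detected well enough to be tested in every comparison.

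RNA was sequenced from MOLM13, a human cell line established from acute myeloid leukaemia and positive for MLL-AF9, in 17 libraries from 2 experiments. In the first, cells with a non-targeting CRISPR guide (NT, n = 3) stood beside cells with a CRISPR knockout of HOXA9 (HOXA9_KO, n = 3) and of SAFB (SAFB_KO, n = 3). In the second, the MEIS1 experiment, cells with a non-targeting guide (NT_MEIS1ex, n = 4) stood beside cells with a CRISPR knockout of MEIS1 (MEIS1_KO, n = 4). Every group, controls included, thus came from the same fusion-bearing line and carried a guide. MLL fusions sustain a programme to which the homeobox transcription factors HOXA9 and MEIS1 belong, and SAFB is a nuclear matrix-associated protein that binds DNA and RNA. The sources used here do not give the guide sequences, the time after editing, or whether cells were pooled or cloned. The labels do not tell whether a group's libraries stem from different cultures, and the p-values then reflect only how the libraries of a group vary.

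Replication origins are licensed in G1, when the origin recognition complex, CDC6 and CDT1 load the MCM2-7 helicase onto DNA. In S phase CDC45 and the GINS complex turn the helicase on, primase and the polymerases copy the strands, and the clamp PCNA holds the polymerases on DNA. Most of these genes are transcribed at the G1/S transition under E2F factors. Cyclin-dependent kinases, cyclin E-CDK2 among them, release these factors from the retinoblastoma protein. In bulk RNA, fewer cells in S phase and less RNA per cell cannot be told apart.

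Promoter windows were available in RefSeq (GRCh38.p14) for 39 of the 45 members, running from 250 bases before to 50 bases after the first listed start. The other members, MCM4, MCM5, GINS4, RPA2, CCNE2 and E2F8, are named only. The windows were searched on both strands for an E2F-type string of 8 letters, TTTCCCGC, TTTCGCGC, TTTGCCGC or TTTGGCGC. Such a string was present in 20 of the 39 windows (51.3%) and in 908 of 27305 windows of all genes (3.33%). The list was partly assembled as E2F targets, so this excess is a property of the choice of genes. With the first T of each left off, a string of 7 letters, it was present in 29 of the 39 windows (74.4%) and in 13.1% of all windows. Every window with an 8-letter string holds the 7-letter one inside it. CCAAT was present in 53.8% of the members' windows and 35.7% of all windows, and a CHR-type string (TTTGAA, searched together with the form TTCGAA) in 5.13% and 16.6%. A match describes letters and does not show that a factor binds there.

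The stretches below lie before the first RefSeq start, several of them inside the gene bounds of GENCODE 29 (among these CDT1, GINS2, RFC3, LIG1, UHRF1, TYMS, PRIM1 and RPA1). They belong to members named in the results. CDT1 fell in all 3 knockouts and TYMS in 2 of them. In the HOXA9 knockout, MCM6 to UHRF1 had log2 changes from -0.72 to -0.87, a range that holds the members' median of -0.75. There PCNA fell least among the called genes, PRIM1 had one of the largest falls, and RPA1 was not called. Capitals mark the E2F-type letters, with up to 10 bases on each side, read 5′ to 3′ on the gene's strand in GRCh38.p14.
CDT1 (chr16:88803744-88803771, + strand): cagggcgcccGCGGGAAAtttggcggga
MCM6 (chr2:135876512-135876539, - strand): gtcaggtttgGCGCGAAAtctccagctc
GINS2 (chr16:85688968-85688995, - strand): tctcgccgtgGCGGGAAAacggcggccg
POLA1 (chrX:24693771-24693798, + strand): tcatcacaggGCGCCAAAcgcgcgtccg
RFC3 (chr13:33818084-33818111, + strand): tttggagctcGCGGGAAAacttgtctct
LIG1 (chr19:48170441-48170468, - strand): cttcacccctTTTCCCGCcctcctccca
UHRF1 (chr19:4909477-4909500, + strand): ccgagttttcGCGGGAAAaaaatc
TYMS (chr18:657604-657631, + strand): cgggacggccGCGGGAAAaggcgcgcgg
PCNA (chr20:5126664-5126691, - strand): agcgtcagggGCGGGAAAaggcgtgcgt
PRIM1 (chr12:56752331-56752357, - strand): ggccgtgctgTTCCCGCcaattcctgt
RPA1 (chr17:1829826-1829852, + strand): ggcgcgccccTTGGCGCcccgctccgc
In the MCM6 stretch, the 4 letters before the capitals begin another string, TTTGGCGC, which overlaps the one in capitals. The first 9 carry an 8-letter string and the last pair only the 7-letter one. In the HOXA9 knockout, the 20 members with an 8-letter string had a median log2 change of -0.75 and the 19 with a window but without it a median of -0.80. The 10 members whose window holds neither string changed by differing amounts in that knockout. Their log2 changes were -1.02 (RRM2), -1.01 (TK1), -0.95 (GMNN), -0.93 (CDC45), -0.88 (MCM10), -0.76 (ORC6), -0.75 (DUT), -0.61 (FEN1), -0.32 (POLD1) and 0.10 (CCNE1, not called). A window without these exact strings does not show that no E2F factor binds at the gene.

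Library size and marker checks were as follows. Reads assigned to genes ranged from 23.3 M to 67.8 M per library. Mitochondrial rRNA took 22.5% to 28.4% of assigned reads in NT, 31.9% to 35.5% in HOXA9_KO and 24.9% to 27.0% in SAFB_KO, but at most 0.0094% in the MEIS1 experiment, so levels are compared only within an experiment. Reads that fell on no annotated feature also moved with the groups, at 16.4% to 18.1% in NT, 8.65% to 9.27% in HOXA9_KO and 10.6% to 12.7% in SAFB_KO, and their part in the results was not tested. NT replicate 1 stood apart from its group, with a chi-square per gene of 32.9 and 19.3 against NT replicates 2 and 3, which differed from each other by 6.03. Without it, 43 members were called lower in HOXA9_KO, and 20 lower and 2 higher in SAFB_KO. HOXA9 read 40.5, 42.0 and 40.1 CPM (read counts scaled to library size) in NT and 21.9, 21.2 and 21.1 in HOXA9_KO. SAFB read 40.4, 33.6 and 40.9 CPM in NT and 22.2, 20.4 and 19.4 in SAFB_KO. MEIS1 read 31.7 to 33.4 CPM in NT_MEIS1ex and 10.3 to 12.8 in MEIS1_KO. The targeted RNA was lower in every library of its knockout, but a gene-level count does not show how much working protein was left. The labelled cell type fits its markers: 7 of 7 myeloid markers (CD33, SPI1, CEBPA, FLT3, CSF1R, LYZ and PTPRC) were detected, while the markers of erythroid or megakaryocytic, lymphoid and epithelial or fibroblast cells summed to at most 6.24 CPM per class in any library and PF4 was at 0 throughout. The summed myeloid markers moved with the knockouts, mainly through LYZ. NT libraries summed to 5430 to 5560 CPM, HOXA9_KO to 29300 to 32300, SAFB_KO to 13400 to 15100. Sums in the MEIS1 experiment were 4260 to 5840 in NT_MEIS1ex and 7800 to 8100 in MEIS1_KO. Mean LYZ rose from 4152 CPM (NT) to 29690 (HOXA9_KO) and 12820 (SAFB_KO), and from 3675 (NT_MEIS1ex) to 6664 (MEIS1_KO). FLT3 went the other way, from a mean of 674.7 CPM (NT) to 321.5 (HOXA9_KO). CD33, SPI1, CEBPA, CSF1R and PTPRC had higher means in HOXA9_KO than in NT. FLT3 and CEBPA had lower means in MEIS1_KO than in its controls. The part of these markers in the results below was not tested.

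The first comparison asked how the replication programme stood in HOXA9-knockout cells. It was lower almost as a block: 43 of the 45 genes fell, none rose, and only the cyclin CCNE1 and the single-strand binding subunit RPA1 were not called. Falls were called at an adjusted p under 0.05 (edgeR's quasi-likelihood test, Benjamini-Hochberg over 18876 genes), and in all 43 every HOXA9_KO library lay below every NT library. The share of all tested genes separated in this way was not computed. The background was high in this comparison, with 29.9% of all tested genes called lower and 27.6% called higher. The members' median log2 change was -0.75, beside -0.07 over all tested genes. Of the called members 37 were at least 1.5-fold lower, as were 3291 of the 18876 tested genes. Summed over the 45 genes, the libraries read 2851, 2883 and 2841 CPM in NT and 1788, 1754 and 1831 CPM in HOXA9_KO, which is 62.7% of the NT mean.

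**Figure D1:**
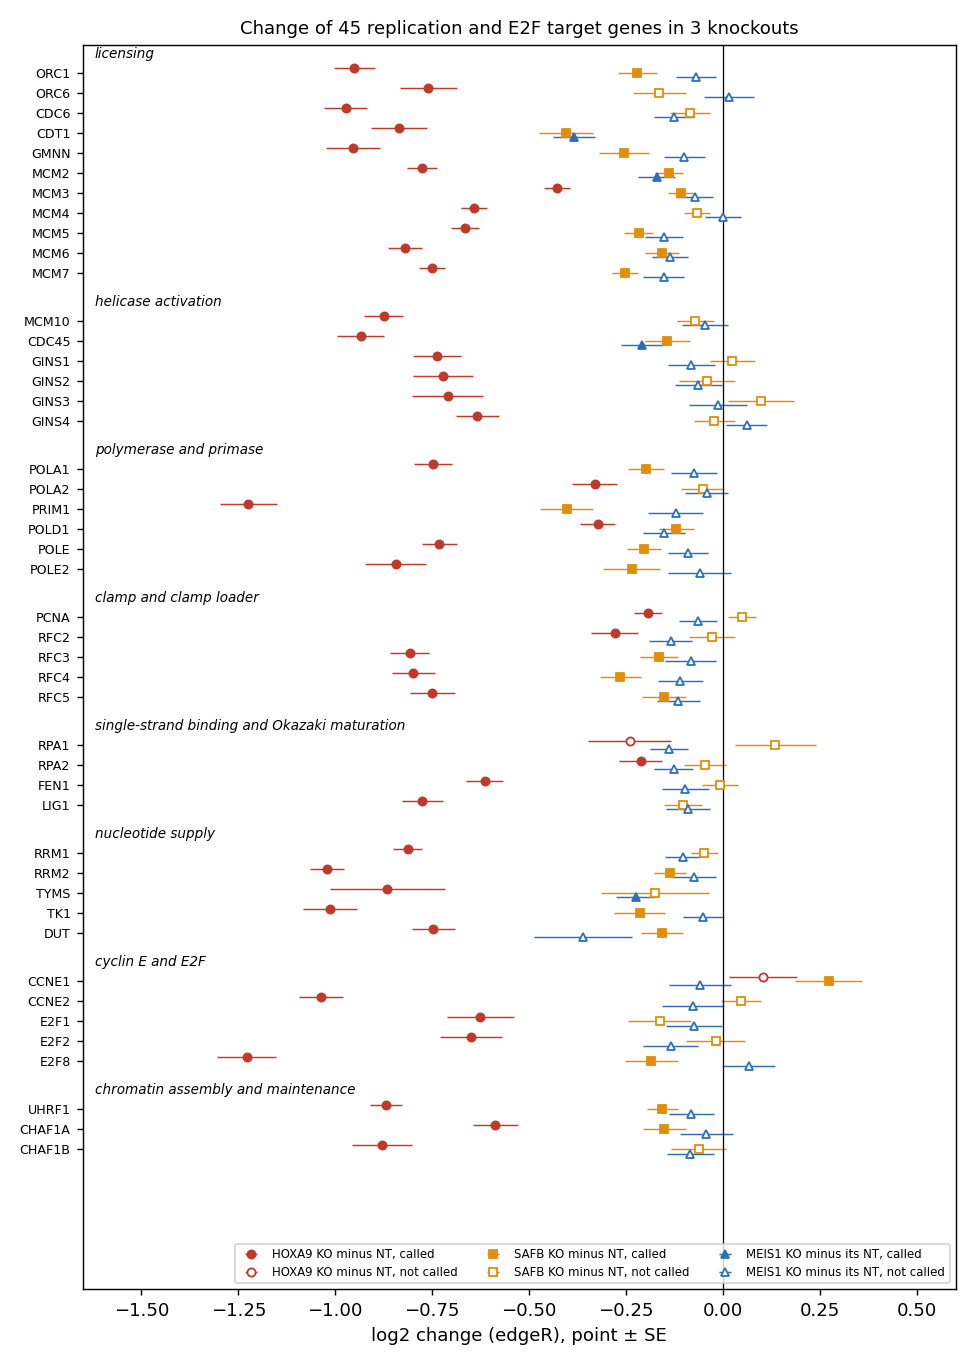
Log2 change of each of the 45 genes (horizontal axis, point ± SE from edgeR) in the 3 knockouts, each against the non-targeting libraries of its own experiment, with genes grouped by role. Filled symbols were called at an adjusted p under 0.05. The HOXA9_KO points lie left of the others in nearly every row, while those of SAFB_KO and MEIS1_KO sit near 0, and CCNE1 is the filled point to the right of 0.

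All 11 licensing genes fell in HOXA9_KO, with a median log2 change of -0.78. CDC6, the ATPase that helps load the helicase, had the largest fall. It read 44.4, 48.3 and 47.0 CPM in NT and 22.4, 23.0 and 25.5 in HOXA9_KO, a log2 change of -0.97 ± 0.06 (SE, adjusted p = 4.74e-21). The groups were far apart, with the highest knockout library well under the lowest control. GMNN, the inhibitor that keeps CDT1 from relicensing origins, fell by 0.95 ± 0.07 (SE), about as much as ORC1 at -0.95 ± 0.05, the largest origin recognition subunit, and as CDT1 itself at -0.84 ± 0.07.

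The 6 subunits of the MCM2-7 helicase, which act together in a ring, did not fall by the same amount. Log2 changes ran from -0.43 ± 0.03 (SE) for MCM3 to -0.82 ± 0.04 for MCM6, with MCM4 at -0.64, MCM5 at -0.67, MCM7 at -0.75 and MCM2 at -0.78. Per kb of exon, MCM4 stood highest in NT at 55.7 CPM per kb ± 0.55 (SD, n = 3), and MCM5 lowest at 19.0 ± 0.52. In HOXA9_KO, MCM3 stood highest at 37.8 CPM per kb ± 1.26, close to MCM4 at 35.7 ± 2.08, a gap of about the spread between libraries, and MCM5 at 12.0 ± 0.39 was within the spread of MCM6 at 12.2 ± 0.36. The highest subunit was 2.93 times the lowest in NT and 3.15 times in HOXA9_KO. These ranks and ratios depend on the exon length used, which joins all annotated exons of a gene. That length was largest for MCM5, at 7338 bases. In CPM without it, MCM6 was the lowest in NT, at a mean of 88.85, and MCM5 read 139.7. MCM2 shares 23.6% of its exon bases with a gene on the opposite strand, and the sources used here do not say whether the counting used strand.

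**Figure D2:**
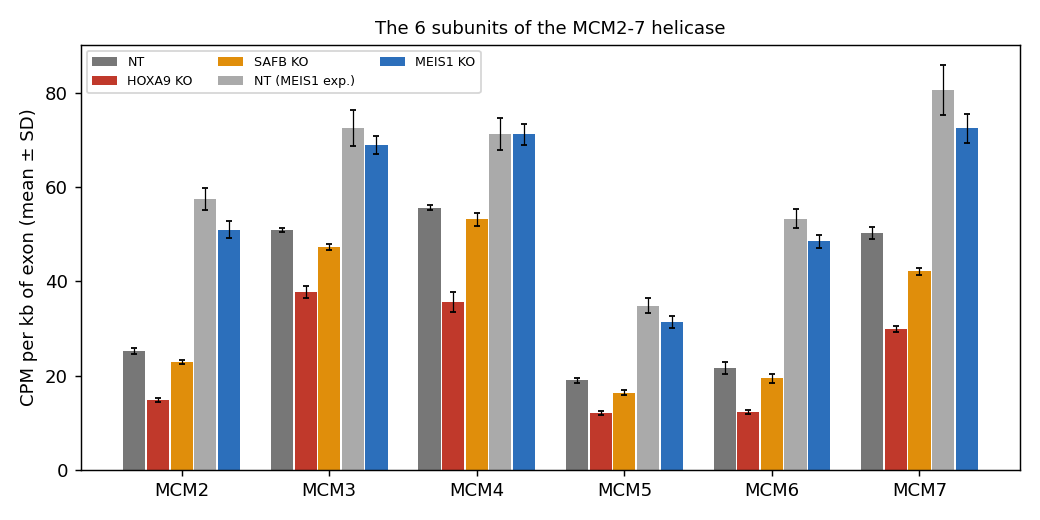
Level of each MCM2-7 subunit in CPM per kb of exon (vertical axis from 0; bars are group means, whiskers SD; n = 3 in NT, HOXA9_KO and SAFB_KO, n = 4 in the MEIS1 experiment). All 6 subunits are lower in HOXA9_KO than in NT. On this scale, which divides by the joined length of all annotated exons, MCM5 has the lowest mean in all 5 groups.

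All 6 genes of helicase activation fell in HOXA9_KO, with a median of -0.73. CDC45, which joins MCM2-7 and GINS in the active helicase, read 33.6, 35.6 and 34.5 CPM in NT and 19.4, 17.9 and 17.1 in HOXA9_KO. Every knockout library lay far below every control, with a log2 change of -0.93 ± 0.06 (SE, adjusted p = 6.11e-19). The 4 GINS subunits fell by 0.63 to 0.74 and MCM10, the scaffold of helicase activation, fell by 0.88.

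The polymerase genes split into larger and smaller falls. PRIM1, the catalytic primase subunit that lays the RNA primer, read 26.7, 26.4 and 26.6 CPM in NT and 9.85, 12.9 and 11.3 in HOXA9_KO, a log2 change of -1.22 ± 0.07 (SE, adjusted p = 4.33e-20). PRIM1 shares 16.2% of its exon bases with another gene on the same strand. POLE and POLE2, subunits of the leading-strand polymerase, fell by 0.73 ± 0.05 and 0.84 ± 0.08, and POLA1, the catalytic subunit of polymerase alpha, fell by 0.75 ± 0.05. POLA2, the accessory subunit of the same enzyme, fell by 0.33 ± 0.06 and shares 35.1% of its exon bases with a gene on the same strand, and POLD1, the catalytic subunit of the lagging-strand polymerase, fell by 0.32 ± 0.05. The differences between these genes' changes were not tested.

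The clamp fell much less than most of its loader. PCNA read 141, 146 and 142 CPM in NT and 130, 118 and 127 in HOXA9_KO, so every knockout library was lower but by a small margin, with a log2 change of -0.19 ± 0.04 (SE, adjusted p = 9.48e-06). RFC3 of the clamp loader read 53.4, 53.4 and 54.3 CPM in NT and 29.6, 32.01 and 30.4 in HOXA9_KO, a change of -0.81 ± 0.05 (adjusted p = 1.01e-19). RFC4 and RFC5 were close to RFC3, at -0.80 ± 0.05 and -0.75 ± 0.06. RFC2, a further loader subunit, changed by -0.28 ± 0.06.

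Among the 4 genes of single-strand binding and Okazaki maturation, 3 fell. LIG1, the ligase that seals Okazaki fragments, read 44.4, 45.3 and 43.5 CPM in NT and 25.7, 26.2 and 25.9 in HOXA9_KO. The knockout libraries lay within 1 CPM of each other and far below the controls (adjusted p = 3.93e-18), at 58.4% of the control level. FEN1, the flap nuclease that trims those fragments, fell by 0.61 ± 0.05 (SE), and RPA2 by 0.21 ± 0.05. RPA1, the large subunit of the single-strand binding protein, read 38.1, 27.8 and 33.6 CPM in NT and 27.4, 27.9 and 29.2 in HOXA9_KO. The groups overlapped because 1 NT library lay among the knockout libraries, and RPA1 was not called (log2 change -0.24 ± 0.11, adjusted p = 0.0815). RPA1 was called lower without that library, NT replicate 2 (-0.35, adjusted p = 1.05e-05), and also with no filter, with a mean of at least 2 CPM, with DESeq2, with a replicate block and with scaling to nuclear protein-coding counts (adjusted p = 0.000152 to 0.0372).

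All 5 nucleotide supply members fell in HOXA9_KO, with the lowest class median together with chromatin assembly, at -0.87. RRM2, the S-phase subunit of ribonucleotide reductase, read 116, 114 and 107 CPM in NT and 51.4, 55.1 and 59.3 in HOXA9_KO. No knockout library came near the controls, and the log2 change was -1.02 ± 0.04 (SE, adjusted p = 1.2e-24). RRM2 shares 20.2% of its exon bases with a gene on the same strand. RRM1, the large subunit of the same enzyme, fell by 0.81 ± 0.04, TK1, the thymidine kinase of dividing cells, by 1.01 ± 0.07, and DUT, which removes dUTP, by 0.75 ± 0.06. DUT shares 14.5% of its exon bases with a gene on the opposite strand. TYMS, the enzyme that makes thymidylate, read 34.3, 24.9 and 23.6 CPM in NT and 14.1, 15.7 and 15.8 in HOXA9_KO. One NT library stood well above the other controls, and the change was -0.87 ± 0.15 (adjusted p = 0.00126), or -0.67 (adjusted p = 8.07e-13) without that library. TYMS shares 46.6% of its exon bases with genes on the opposite strand.

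Of the cyclin E genes, CCNE2 was called and CCNE1 was not. CCNE2, cyclin E2, read 40.5, 40.5 and 39.5 CPM in NT and 20.5, 18.7 and 19.6 in HOXA9_KO, a change of -1.04 ± 0.06 (SE, adjusted p = 5.46e-22). CCNE1, cyclin E1, read 9.64, 11.1 and 9.06 CPM in NT and 11.2, 10.4 and 10.4 in HOXA9_KO. Its groups overlapped, and its change of 0.10 ± 0.09 was not called (adjusted p = 0.326). Per kb of exon, CCNE2 was above CCNE1 in NT, at 9.14 CPM per kb ± 0.13 against 3.90 ± 0.42 (SD, n = 3), while in HOXA9_KO they stood at 4.46 ± 0.21 and 4.19 ± 0.19. CCNE2 shares 37.1% of its exon bases with a gene on the opposite strand. E2F8, an atypical E2F that represses E2F targets, read 21.8, 20.8 and 20.8 CPM in NT and 8.19, 9.05 and 9.76 in HOXA9_KO, the largest fall of the 45 genes at -1.23 ± 0.08 (adjusted p = 1.02e-19). The activator E2Fs fell less, E2F1 by 0.63 ± 0.09 and E2F2 by 0.65 ± 0.08.

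All 3 chromatin genes fell in HOXA9_KO. CHAF1B, a subunit of the CAF-1 histone chaperone, read 17.3, 18.7 and 17.7 CPM in NT and 9.81, 9.67 and 9.65 in HOXA9_KO, with no overlap and a change of -0.88 ± 0.08 (SE, adjusted p = 3.22e-14). UHRF1, which recruits maintenance methylation to new DNA, fell by 0.87 ± 0.04, and CHAF1A, the large CAF-1 subunit, by 0.59 ± 0.06. With TMM replaced by a scaling to nuclear protein-coding counts, the median of all genes moved from -0.07 to -0.32 and the share of calls that were higher from 48.0% to 23.5%. On that scale 44 members fell, none rose, and their median was -1.0, where 9293 of 18876 tested genes were called lower.

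**Figure D3:**
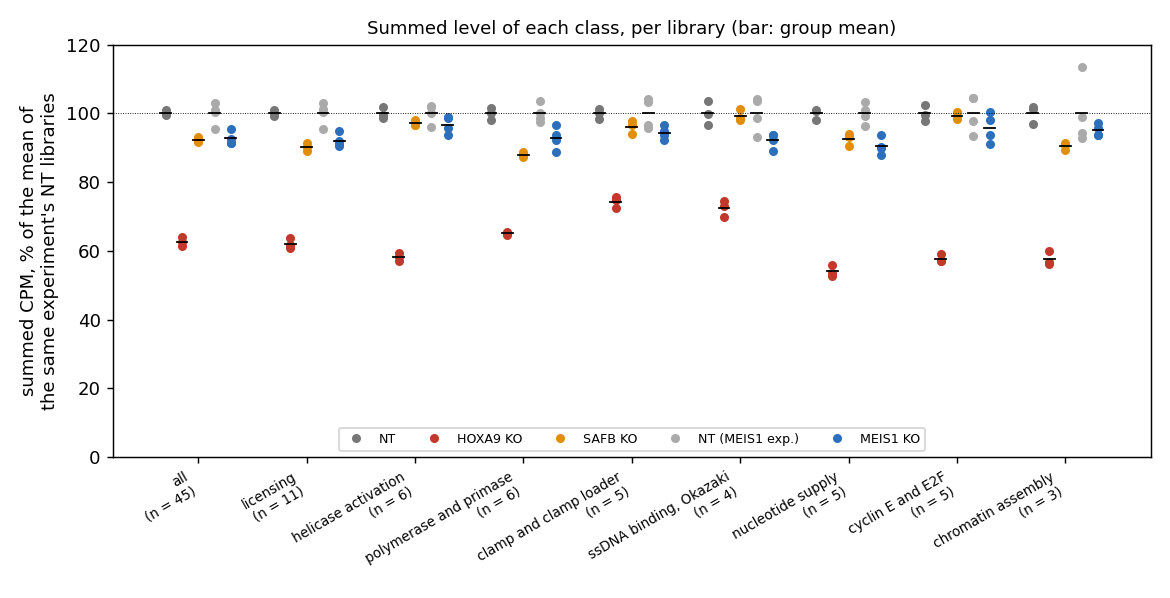
Summed CPM of all 45 genes and of each class (horizontal axis) in every library, as a percentage of the mean of the non-targeting libraries of the same experiment (vertical axis from 0). Points are libraries and bars are group means. HOXA9_KO means lie between 54.1% (nucleotide supply) and 74.3% (clamp and clamp loader), and those of SAFB_KO and MEIS1_KO between 88.0% and 99.4%.

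The second comparison asked the same of SAFB-knockout cells, against the same NT libraries, so its values share their controls with those above. The programme was lower in a smaller way: 23 of the 45 genes fell, CCNE1 rose and 21 were not called. Among all tested genes 15.3% were called lower and 20.2% higher. The members' median log2 change was -0.14, beside -0.02 over all tested genes. No member was 1.5-fold lower, while 1291 of the 18876 tested genes were called and at least 1.5-fold lower. The summed level was 2661, 2630 and 2618 CPM in SAFB_KO, below all 3 NT libraries and at 92.2% of their mean.

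Differences between the roles were not tested. Licensing contributed 8 of its 11 genes and the polymerases and primase 5 of 6, while helicase activation contributed 1 of 6 and single-strand binding and Okazaki maturation none of 4. CDT1, which brings the helicase to origins, read 28.9, 29.6 and 30.9 CPM in NT and 20.6, 24.6 and 21.9 in SAFB_KO. Every SAFB_KO library lay below the controls, with a log2 change of -0.41 ± 0.07 (SE, adjusted p = 5.64e-06). PRIM1 read 21.0, 19.6 and 19.8 CPM in SAFB_KO, between HOXA9_KO and NT, a change of -0.40 ± 0.07 (adjusted p = 3.6e-06).

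Other falls in SAFB_KO were smaller. RFC4 of the clamp loader read 37.8, 39.8 and 39.1 CPM in NT and 32.9, 31.9 and 32.3 in SAFB_KO (adjusted p = 6.28e-05), at 83.2% of the control level. TK1 read 28.2, 29.8 and 31.7 CPM in NT and 25.6, 23.5 and 28.1 in SAFB_KO. The highest TK1 knockout library came within 0.1 CPM of the lowest control, and TK1 stood at 86.1% of the control level (adjusted p = 0.00785). TK1 was not called without NT replicate 3 (adjusted p = 0.0609) or SAFB_KO replicate 2 (adjusted p = 0.122). UHRF1 read 88.2, 92.1 and 95.5 CPM in NT and 83.3, 81.0 and 83.2 in SAFB_KO, a change of -0.16 ± 0.04 (SE, adjusted p = 0.00144).

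CDC45 was the gene of helicase activation called lower in SAFB_KO, at 31.0, 30.4 and 32.5 CPM and a change of -0.14 ± 0.06 (SE, adjusted p = 0.0423). The CDC45 call was lost with RLE size factors, with no filter, with DESeq2 and when SAFB_KO replicate 1 or 2, NT replicate 2 or 3, or the second HOXA9_KO library was left out (adjusted p = 0.0546 to 0.17). The 4 GINS subunits, which enter the same helicase, were not called, with log2 changes from -0.04 to 0.10. E2F8 changed by -0.19 ± 0.07 (adjusted p = 0.0302), a call that was lost with no filter, with DESeq2 and without NT replicate 1 or 2 or any SAFB_KO replicate (adjusted p = 0.0501 to 0.122). CCNE2 at 0.05 ± 0.05 and E2F2 at -0.02 ± 0.08 were not called. RPA1 read 39.5, 36.5 and 33.7 CPM in SAFB_KO, within and above the NT range, and was not called (adjusted p = 0.362).

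CCNE1 was the exception in direction. It read 11.4, 12.1 and 12.5 CPM in SAFB_KO, above all 3 NT libraries, a log2 change of 0.27 ± 0.09 (SE, adjusted p = 0.00998). The call was lost without NT replicate 3 (adjusted p = 0.0628), without SAFB_KO replicate 3 (adjusted p = 0.0511) and with scaling to nuclear protein-coding counts (adjusted p = 0.221). That scaling moved the median of all genes from -0.02 to -0.16 and the share of calls that were higher from 56.9% to 23.6%, and on it 38 members fell and none rose, with a median of -0.28. With it, 5535 of 18876 tested genes were called lower.

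**Figure D4:**
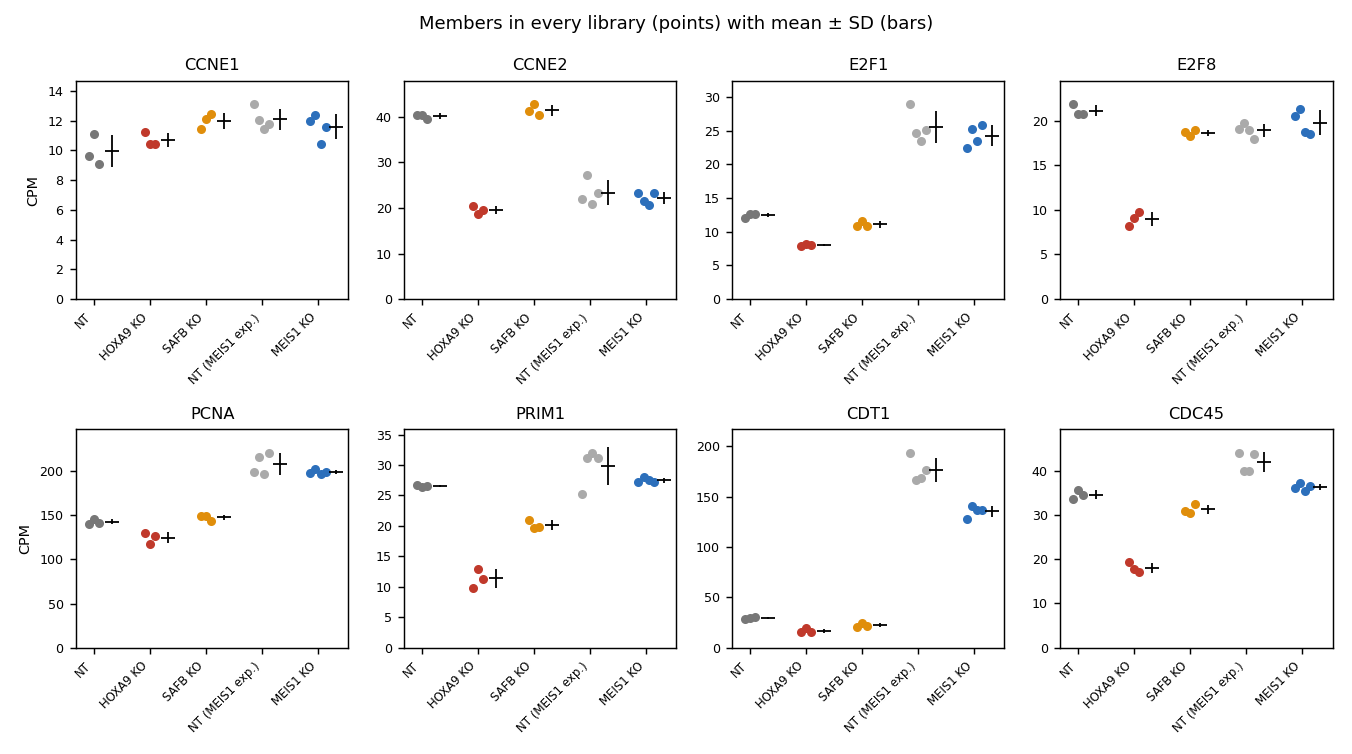
CPM of 8 members in every library (points; vertical axes from 0) with the mean ± SD of each group beside them. CCNE2, E2F8 and PRIM1 are lowest in HOXA9_KO, PCNA moves little, CCNE1 sits highest of the first experiment in SAFB_KO, and CDT1 and CDC45 are lower in MEIS1_KO than in all 4 of its controls.

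The third comparison asked the same of MEIS1-knockout cells, against 4 controls of their own. There 4 of the 45 genes fell, none rose and 41 were not called, in a comparison in which 3.84% of 15744 tested genes were called lower and 4.97% higher. The members' median log2 change was -0.08, beside 0.00 over all tested genes, and 41 of the 45 changes were below 0. Summed over the members, MEIS1_KO read 4419, 4550, 4365 and 4353 CPM and NT_MEIS1ex 4917, 4785, 4556 and 4821, so the highest knockout library lay just under the lowest control, and the mean at 92.7% of the controls.

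The 4 genes were CDT1, MCM2, CDC45 and TYMS. CDT1 read 127, 140, 137 and 137 CPM in MEIS1_KO and 194, 167, 169 and 177 in NT_MEIS1ex. The groups were clearly apart, with a log2 change of -0.38 ± 0.05 (SE, adjusted p = 0.000235). TYMS read 119, 128, 118 and 121 CPM against 152, 140, 137 and 139, a change of -0.23 ± 0.05 (adjusted p = 0.00785). CDC45 read 36.2, 37.2, 35.5 and 36.6 CPM against 44.1, 40.1, 40.1 and 43.7, a change of -0.21 ± 0.06 (adjusted p = 0.0265). MCM2 read 242, 256, 244 and 259 CPM against 276, 292, 268 and 290, a change of -0.17 ± 0.05 (adjusted p = 0.0301). CDC45 and MCM2 were no longer called without MEIS1_KO replicate 1, 2 or 3 or NT_MEIS1ex replicate 4 (adjusted p up to 0.0976 for CDC45 and 0.12 for MCM2), and MCM2 also not without NT_MEIS1ex replicate 2 (adjusted p = 0.0568).

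The member with the largest change in MEIS1_KO was not called in the remaining classes, nor in nucleotide supply, where the value for DUT was larger than that for TYMS. DUT read 53.3, 65.1, 58.7 and 76.4 CPM in MEIS1_KO and 96.1, 82.0, 78.3 and 68.9 in NT_MEIS1ex. These groups overlapped and varied widely within themselves, so that a log2 change of -0.36 ± 0.13 (SE) had an adjusted p of 0.119. POLD1 read 141, 153, 154 and 150 CPM against 181, 155, 159 and 170, without overlap (adjusted p = 0.094). RPA1 read 133, 133, 130 and 128 CPM against 145, 144, 135 and 153, again without overlap, and was not called (adjusted p = 0.0823).

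RFC2 read 44.6, 44.5, 45.4 and 45.1 CPM in MEIS1_KO and 52.3, 47.3, 45.7 and 51.7 in NT_MEIS1ex (adjusted p = 0.15). E2F2 read 21.9, 27.0, 24.2 and 25.7 against 28.6, 28.2, 25.1 and 26.5, with overlap (adjusted p = 0.269). CHAF1B read 25.6, 26.5, 26.8 and 25.9 against 28.0, 28.95, 25.5 and 28.7, also with overlap (adjusted p = 0.438). In all, 10 members that were not called still lay lower in every MEIS1_KO library, and none lay higher in every one. How often this holds among all tested genes was not computed, so the count has no background to be read against. The share of calls that were higher was 56.5% and became 68.5% with scaling to nuclear protein-coding counts, on which the same number of members, 4, fell. With that scaling 450 of 15744 tested genes were called lower.

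Set side by side, CDT1 stood at 56.0%, 75.5% and 76.6% of the control level in HOXA9_KO, SAFB_KO and MEIS1_KO, and it was called lower in each under every alternative run. MCM2 and CDC45 were called lower in each as well, with the losses of their MEIS1_KO calls, and of the SAFB_KO call for CDC45, given above. The HOXA9_KO and SAFB_KO values share their controls. The share of all tested genes called lower in every knockout was not computed, so this overlap has no background to be read against.

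The knockouts were then compared directly. Against SAFB_KO, 44 of the 45 genes were lower in HOXA9_KO and none higher, where 20.5% of all tested genes were called lower and 20.1% higher. CCNE1 was the member not called, at -0.17 ± 0.09 (SE, adjusted p = 0.13). Of 17 alternative runs, 6 lost the RPA1 call (adjusted p up to 0.09) and 3 lost the RPA2 call (adjusted p up to 0.244). For RPA2 the libraries of the compared groups overlapped. The largest differences were CCNE2 at -1.08 ± 0.06 (adjusted p = 6.97e-22), E2F8 at -1.04 ± 0.08 (adjusted p = 3.98e-16) and CDC6 at -0.89 ± 0.06 (adjusted p = 1.02e-18). The members' median was -0.61, beside -0.02 over all genes. With scaling to nuclear protein-coding counts the share of calls that were higher moved from 49.4% to 29.5%, and all 45 members were lower, as were 5845 of 18876 tested genes.

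MEIS1 RNA itself was also compared between the HOXA9 and MEIS1 knockouts. It read 48.4, 48.7 and 50.4 CPM in NT and 16.7, 16.1 and 17.7 in HOXA9_KO, a log2 change of -1.54 ± 0.06 (SE, adjusted p = 9.41e-29), and its change in MEIS1_KO was -1.54 ± 0.07. The difference between these changes was 0.04 ± 0.09 (adjusted p = 0.757). In SAFB_KO, MEIS1 RNA read 37.7, 40.95 and 40.3 CPM, also below every NT library. Whether lower MEIS1 RNA has a part in the HOXA9_KO or SAFB_KO changes was not tested, and RNA does not show how much MEIS1 protein was left. The replication genes were then compared between the HOXA9 and MEIS1 knockouts, which come from different experiments. In the fit of all 17 libraries, each effect taken against its own controls, the HOXA9 effect was lower than the MEIS1 effect for 38 of the 45 genes and higher for none, with 19.7% of all tested genes called lower and 24.5% higher. E2F8 differed by -1.25 ± 0.10 (adjusted p = 2.03e-12), PRIM1 by -1.06 ± 0.11 (adjusted p = 1.96e-10) and TK1 by -0.92 ± 0.09 (adjusted p = 3.64e-10).

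The 7 genes whose effects were not called different were POLD1, PCNA, RFC2, RPA1, RPA2, DUT and CCNE1. Their differences ran from -0.34 ± 0.18 (SE) for DUT to 0.20 ± 0.12 for CCNE1. The members' median difference was -0.62, beside -0.02 over all genes. With scaling to nuclear protein-coding counts 44 members were lower, the median of all genes moved to -0.34 and the share of calls that were higher from 55.5% to 19.4%. On that scale 7777 of 18836 tested genes were called lower.

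Between the SAFB and MEIS1 effects, CCNE1 alone was called, higher by 0.34 ± 0.12 (SE, adjusted p = 0.0412), and none lower, where 8.49% of all tested genes were called lower and 12.4% higher. CCNE1 was no longer called with scaling to nuclear protein-coding counts (adjusted p = 0.34), with no filter (0.0577), with a mean of at least 2 CPM (0.0954), or without any one of NT replicates 1 and 3, SAFB_KO replicates 2 and 3, MEIS1_KO replicates 3 and 4 and NT_MEIS1ex replicates 1 and 4 (0.0503 to 0.114). The members' median difference was -0.01, and PRIM1 had the largest negative difference at -0.27 ± 0.10, just short of a call (adjusted p = 0.0501). With scaling to nuclear protein-coding counts 20 members were lower and none higher, as the median of all genes moved from -0.00 to -0.18 and the share of calls that were higher from 59.3% to 14.9%. On that scale 3496 of 18836 tested genes were called lower.

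A further 71 genes of the same pathways, outside the 45, were examined by the same tests. In HOXA9_KO 52 of them fell and 8 rose, in SAFB_KO 22 fell and 7 rose, and in MEIS1_KO 5 fell and 1 rose, with median log2 changes of -0.42, -0.06 and -0.06. Over all tested genes the shares called lower and higher were 29.9% and 27.6% in HOXA9_KO, 15.3% and 20.2% in SAFB_KO, and 3.84% and 4.97% in MEIS1_KO. The largest falls in HOXA9_KO were in factors that fire origins and in fork and chromatin proteins: TICRR, which helps start the helicase, at -1.27 ± 0.07 (SE, adjusted p = 2.03e-21), HELLS, a chromatin remodeller, at -1.12 ± 0.05, MTBP, the partner of TICRR, at -1.07 ± 0.06, and DSCC1, of the alternative clamp loader, at -1.06 ± 0.07. TICRR read 30.9, 28.5 and 28.6 CPM in NT and 11.3, 13.8 and 11.5 in HOXA9_KO. E2F7, the other atypical E2F, fell by 0.90 ± 0.07.

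Of the genes that rose, 3 of 8 in HOXA9_KO and 3 of 7 in SAFB_KO were among the 11 further nucleotide supply genes. In that class 6 genes fell in HOXA9_KO and 3 in SAFB_KO. Over all tested genes 27.6% were called higher in HOXA9_KO and 20.2% in SAFB_KO. The share of the class that rose in HOXA9_KO was thus near that of all tested genes. SAMHD1, which breaks down dNTPs, read 68.7, 68.9 and 62.0 CPM in NT, 172, 165 and 165 in HOXA9_KO and 110, 110 and 108 in SAFB_KO. It rose in all 3 knockouts, by 1.33 ± 0.04 (SE, adjusted p = 6.15e-33), 0.72 ± 0.04 (adjusted p = 5.31e-21) and, from 74.4 to 79.5 CPM in NT_MEIS1ex to 99.6 to 107 CPM in MEIS1_KO, by 0.41 ± 0.05 (adjusted p = 3.8e-05). RRM2B, the ribonucleotide reductase subunit used outside S phase, rose by 0.67 ± 0.04 in HOXA9_KO and 0.54 ± 0.04 in SAFB_KO, while its S-phase counterpart RRM2 fell in both. SLC29A1, a nucleoside transporter, rose by 0.77 ± 0.04 in HOXA9_KO, and E2F4, an E2F of the repressive DREAM complex, by 0.44 ± 0.04.

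**Figure D5:**
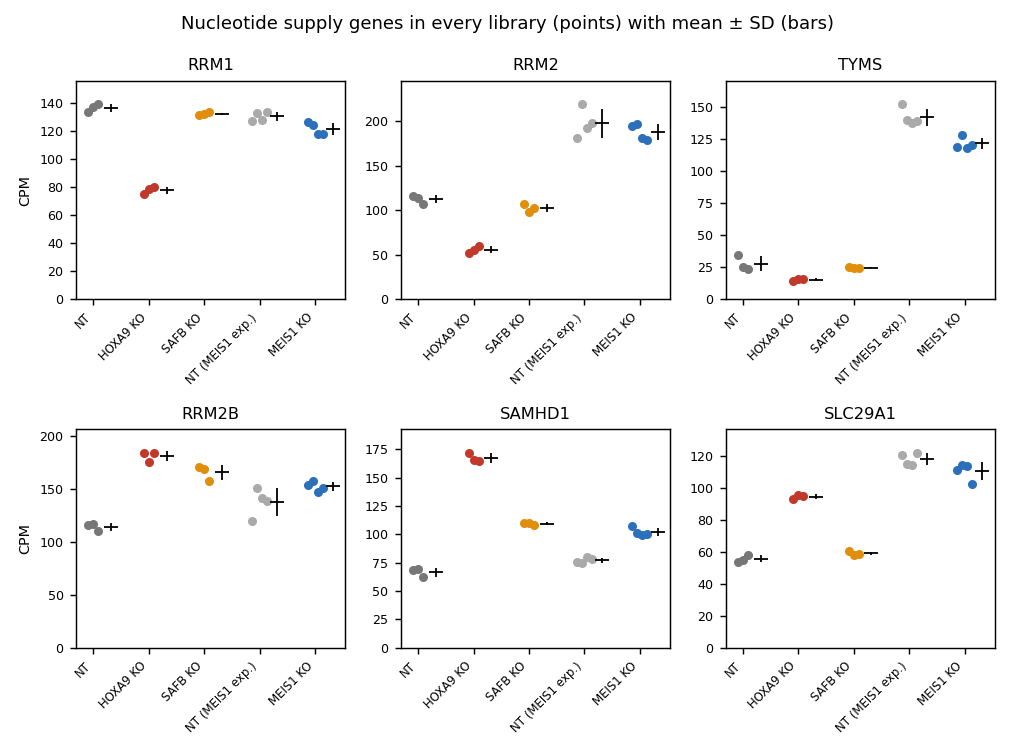
CPM of 6 nucleotide supply genes in every library (points; vertical axes from 0) with group mean ± SD beside them. RRM1, RRM2 and TYMS are lowest in HOXA9_KO, where RRM2B, SAMHD1 and SLC29A1 are higher than in NT.

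SHMT2, the mitochondrial enzyme that feeds one-carbon units to thymidylate synthesis, fell to a like level in HOXA9_KO and SAFB_KO. It read 130, 137 and 141 CPM in NT, 87.0, 89.4 and 88.6 in HOXA9_KO and 87.7, 86.6 and 92.4 in SAFB_KO, changes of -0.62 ± 0.04 (SE, adjusted p = 8.73e-20) and -0.61 ± 0.04 (adjusted p = 7.39e-19). It also fell in MEIS1_KO, by 0.30 ± 0.05 (adjusted p = 0.00193). The next largest falls in SAFB_KO were NASP, a histone chaperone, at -0.37 ± 0.04, ATAD5, which unloads PCNA, at -0.35 ± 0.04, and MTBP at -0.34 ± 0.06. Rises there after SAMHD1 and RRM2B were POLD4 and POLE3, small polymerase subunits, at 0.34 ± 0.07 and 0.24 ± 0.04. In MEIS1_KO the further falls were DSCC1 at -0.29 ± 0.07, CDC25A, the phosphatase that activates CDK2, at -0.21 ± 0.06, ASF1B, a histone chaperone, at -0.18 ± 0.05, and MYBL2, a cell cycle transcription factor, at -0.17 ± 0.05. The CDC25A call was lost with scaling to nuclear protein-coding counts, with a replicate block and without any one library other than NT_MEIS1ex replicate 3 (adjusted p = 0.0516 to 0.14). The ASF1B call was lost with the same scaling and block and without MEIS1_KO replicate 1, 2 or 3 or NT_MEIS1ex replicate 3 or 4 (adjusted p = 0.0507 to 0.115). MYBL2 was not recomputed under the alternatives.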

How the data were processed

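Whole-number read counts per gene for 17 libraries were used as the authors deposited them; per the submitters' processing notes, reads on hg38 involved STAR 2.7.10a, Trim Galore, bedtools and HTSeq 1.99.2, and no annotation release or strand setting is given there. Per the labels, total RNA went through RiboZero depletion and a directional kit, with reads of 150 bases. Symbols came from GENCODE 29, which matched 57937 of 58278 identifiers. edgeR 4.0.16 (R 4.3.3) fitted the 9 libraries of the first experiment, the 8 of the MEIS1 experiment and all 17 together, after filterByExpr (minimum count 10, total 15) and TMM, with robust quasi-likelihood F tests adjusted over all tested genes. The common coefficient of variation between libraries was 4.63%, 6.75% and 5.92%. The SE is the log2 change over the root of F. CPM values are TMM-scaled within an experiment, and CPM per kb divides them by the joined length of all exons annotated for the gene in GENCODE 29.

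Values in every library are given for the member of each class with the largest change in each knockout, members called against the trend and those not called in HOXA9_KO, with TYMS, CCNE2, PCNA and a few pathway genes added after their values were seen. For pathway genes, the 4 largest called changes each way are named, with E2F7 and MYBL2 added. The members and lists were chosen with earlier results of these data known. Alternatives were RLE size factors, scaling to nuclear protein-coding counts, other filters, DESeq2 1.42.0, limma-voom 3.58.1, a replicate block, only the compared groups and leaving out each library. The method was also run on simulated counts in which every gene had the same spread between libraries and no library stood apart. The outcome is not given here, and such a run cannot decide between the scalings.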

Additional observations from a re-analysis of the deposited data

Results flagged for a closer look

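Single libraries stood apart from the other 3 of their group for 4 genes of the MEIS1 experiment. ORC1 read 57.3 CPM in MEIS1_KO replicate 2, where the others read 54 to 54.3. GINS3 read 19.7 CPM in NT_MEIS1ex replicate 4, against 16 to 16.6. In NT_MEIS1ex replicate 1, PRIM1 read 25.3 CPM against 31.1 to 32, and CHAF1A read 84.8 CPM against 66.4 to 68.5. These came from 90 groups of 4 libraries examined, of which chance alone marks about 1 in 20. None of these 4 genes was called in MEIS1_KO with all libraries, and PRIM1 was called lower without NT_MEIS1ex replicate 1 (log2 change -0.19, adjusted p = 0.0247).

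The tests of a difference between knockouts called 44 of the 45 genes between HOXA9_KO and SAFB_KO, 38 between the HOXA9 and MEIS1 effects and 1, CCNE1, between the SAFB and MEIS1 effects.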

How the results depend on the processing

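The count of falls in HOXA9_KO, and the differences of HOXA9_KO from SAFB_KO and of the HOXA9 from the MEIS1 effect, stayed within 1.5 times under all alternatives run: 43 to 44, 42 to 44 and 37 to 40 genes when single libraries were left out. Scaling to nuclear protein-coding counts gave 38 falls and 0 rises in SAFB_KO, where PCNA then fell by 0.09 (adjusted p = 0.0372) after a value of 0.05, and 20 genes lower and 0 higher for the SAFB minus MEIS1 effect. Among all tested genes that scaling called 5535 of 18876 lower in SAFB_KO and 3496 of 18836 for the SAFB minus MEIS1 effect. DESeq2 called 7 members in MEIS1_KO, all lower. For the SAFB minus MEIS1 effect, RLE factors called 2 genes, both higher, DESeq2 2, both higher, limma-voom 2, of which 1 lower, and a mean of at least 2 CPM 5, all lower and 0 higher.

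Leaving out single libraries, falls in SAFB_KO numbered 16 to 23 (16 without SAFB_KO replicate 2) and rises 0 to 2 (2 without NT replicate 1). Falls in MEIS1_KO numbered 2 to 6 (2 without MEIS1_KO replicate 1, 2 or 3 or NT_MEIS1ex replicate 4, 6 without NT_MEIS1ex replicate 1). Calls for the SAFB minus MEIS1 effect numbered 0 to 3, with 0 to 1 lower and 0 to 2 higher. With a replicate block, the last count was 2, both higher, HOXA9_KO had 44 falls, and CDC45 in MEIS1_KO had an adjusted p of 0.0508. Libraries that share a number did not deviate together, with correlations from -0.01 to 0.02 in the first experiment and of -0.15, 0.02, 0.04 and 0.09 in the MEIS1 experiment. Each library held at least 23.3 M assigned reads, and the smallest changes called among the members were -0.11 (MCM3) in SAFB_KO and -0.17 (MCM2) in MEIS1_KO.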
